A study of Mus musculus with 8 samples.

Results

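The cell cycle and DNA replication genes described here were chosen by name: 40 genes, of which 16 act in S phase and 24 in G2 and mitosis. Spots on the array named 39 of the 40, all except Ccnb1, which is not analysed here, and these 39 are among 20863 named genes in all. RNA from whole lung was measured on single-colour Agilent arrays with 1 array per mouse, in 4 Fra-2 over-expressing mice (Fra-2 TG) and 4 wild-type mice. All 8 mice had the C57BL/6 background and were 8 weeks old. Fra-2 is the AP-1 transcription factor encoded by Fosl2. The sources used here name neither the promoter that drives the transgene nor the sex of the mice.

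A cell that divides copies its DNA once in S phase and parts the copies in mitosis. The genes needed for each step are switched on in turn: E2F factors act at the start of S phase, and the MuvB complex with B-Myb and FOXM1 acts in G2 and mitosis. In resting cells the DREAM complex holds both sets down. Most cells of an adult lung are at rest, and transcripts of these genes are often read as coming from the minority that cycles. That minority can include lymphocytes and other blood cells, macrophages, endothelial and epithelial cells. Which cells held the transcripts measured here was not tested.

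Promoter sequences show what the 2 sets have in common beside their names. The table of RefSeq starts (build GRCm38.p6, from 250 bases before to 50 bases after each start) held 33 windows of 32 of the 39 measured genes. Both strands were searched for the CHR element, bound by MuvB (TTTGAA or TTTAAA), the CCAAT box, bound by NF-Y (CCAAT), an E2F motif (TTTGGCGC or TTTCCCGC) and an AP-1 motif (TGANTCA). No motif in the search contains another, and TTTAAA reads the same on both strands. A CHR lay in 16 of the 19 windows of mitosis genes (84.2%) and in 6 of the 14 of S phase genes (42.9%), against 24.0% of the 19958 windows of genes tested on the array. CCAAT was found in 15 of 19 (78.9%) and 10 of 14 (71.4%), against 37.9%. The E2F motif was found in 0 of 19 windows of mitosis genes and in 5 of 14 of S phase genes (35.7%), those of Cdc6, Mcm3, Mcm5, Mcm6 and Mcm7, against 2.09% of windows of genes tested. The AP-1 motif was found in 0 of the 33 windows, against 7.03%. These matches describe letters in the windows and not sites in use.

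Stretches of 4 promoters are shown, Ccnb2 and Mki67 as mitosis genes with both a CHR and CCAAT boxes, and Bub1b and Mcm6 because their levels did not overlap between the groups. Foxm1, the remaining gene without overlap, is not in the promoter table. Each stretch is 250 bases long, from 220 before to 30 after the start, with CHR, CCAAT and E2F motifs of either strand in capitals.
Ccnb2 (chr9:70421525-70421774, minus strand): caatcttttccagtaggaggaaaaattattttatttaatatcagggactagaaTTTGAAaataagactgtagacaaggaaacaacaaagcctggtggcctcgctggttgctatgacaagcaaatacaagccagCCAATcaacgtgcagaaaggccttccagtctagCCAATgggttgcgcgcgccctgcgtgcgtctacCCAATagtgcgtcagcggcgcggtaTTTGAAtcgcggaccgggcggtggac
Mki67 (chr7:135716350-135716599, minus strand): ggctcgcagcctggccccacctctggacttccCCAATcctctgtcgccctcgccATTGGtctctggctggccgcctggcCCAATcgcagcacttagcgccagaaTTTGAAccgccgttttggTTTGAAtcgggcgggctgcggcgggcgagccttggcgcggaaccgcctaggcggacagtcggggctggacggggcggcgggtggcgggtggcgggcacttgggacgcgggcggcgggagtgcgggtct
Bub1b (chr2:118597991-118598240, plus strand): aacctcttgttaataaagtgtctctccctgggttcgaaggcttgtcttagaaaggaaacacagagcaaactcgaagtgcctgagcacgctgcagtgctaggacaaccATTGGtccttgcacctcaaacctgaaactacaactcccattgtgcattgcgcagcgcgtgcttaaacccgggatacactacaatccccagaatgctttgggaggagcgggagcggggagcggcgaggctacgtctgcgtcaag
Mcm6 (chr1:128359676-128359925, minus strand): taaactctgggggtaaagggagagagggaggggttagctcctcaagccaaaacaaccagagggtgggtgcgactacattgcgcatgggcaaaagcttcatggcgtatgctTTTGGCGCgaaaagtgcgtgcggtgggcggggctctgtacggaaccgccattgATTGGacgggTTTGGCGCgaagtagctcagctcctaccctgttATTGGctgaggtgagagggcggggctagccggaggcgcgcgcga
Ccnb2 has 3 CCAAT boxes, a CHR 5 bases after the start and another at base -167. Mki67 has 2 copies of TTTGAA and CCAAT boxes upstream of them, in both orientations. Mcm6 has 2 E2F motifs of the form TTTGGCGC and 2 CCAAT boxes read on the opposite strand. The single CHR of Bub1b begins at base 41 after the start, past the stretch shown.

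Levels are log2 of the normalised intensity, and differences are Fra-2 TG minus wild type. The median and mean intensity were almost identical on all 8 arrays (26.6 and 1203), and a log2 level of 4.74, that of the median spot, is the floor under which a signal is called dim. Mean correlation with the other arrays of the group, over all spots, was lowest for mouse number 4 in both groups, 0.971 in Fra-2 TG and 0.966 in wild type. Sftpc, the surfactant protein C of alveolar type 2 cells, lay at the top of the scanner's scale in all 8 mice. The targeted gene, Fosl2, was read by 2 spots that went opposite ways. The brighter had levels of 10.03, 9.42, 9.38 and 10.62 in Fra-2 TG mice 1 to 4, against 10.64, 10.12, 10.68 and 11.01 in wild-type mice 1 to 4. The dimmer had 6.35, 6.98, 6.68 and 7.85 in Fra-2 TG mice, against 3.44, 4.41, 4.65 and 5.58 in wild-type mice. The genotype labels are therefore not checked by either spot alone.

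No gene of the 39 passed the limma test adjusted over all genes, at the 0.05 threshold, which 0.216% of all genes passed (0.125% higher and 0.0911% lower). Higher levels in Fra-2 TG lung at an unadjusted limma p under 0.05 were found for 4 of 39 (10.3%, against 5.33% of all genes): Foxm1, Mcm6, Bub1b and Cdc6. None of the 39 was lower at that level, against 3.82% of all genes (9.15% in either direction). In 3 of 39 genes, Mcm6, Bub1b and Foxm1, the lowest Fra-2 TG value exceeded the highest wild-type value (7.69%, against 3.99% of all genes), and in none was the reverse true (2.54% of all genes). The exact two-sided permutation test over the 8 mice gave these 3 a p of 0.0286, the smallest that 4 against 4 allows. Differences were positive for 30 of 39 genes, 12 of 16 in S phase and 18 of 23 in mitosis, against 52.4% of all genes. The median difference was 0.21 for S phase genes and 0.14 for mitosis genes, against 0.01 for all genes tested. With whole lung RNA, a change in the number of dividing cells and a change in RNA per cell cannot be told apart.

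**Figure D1:**
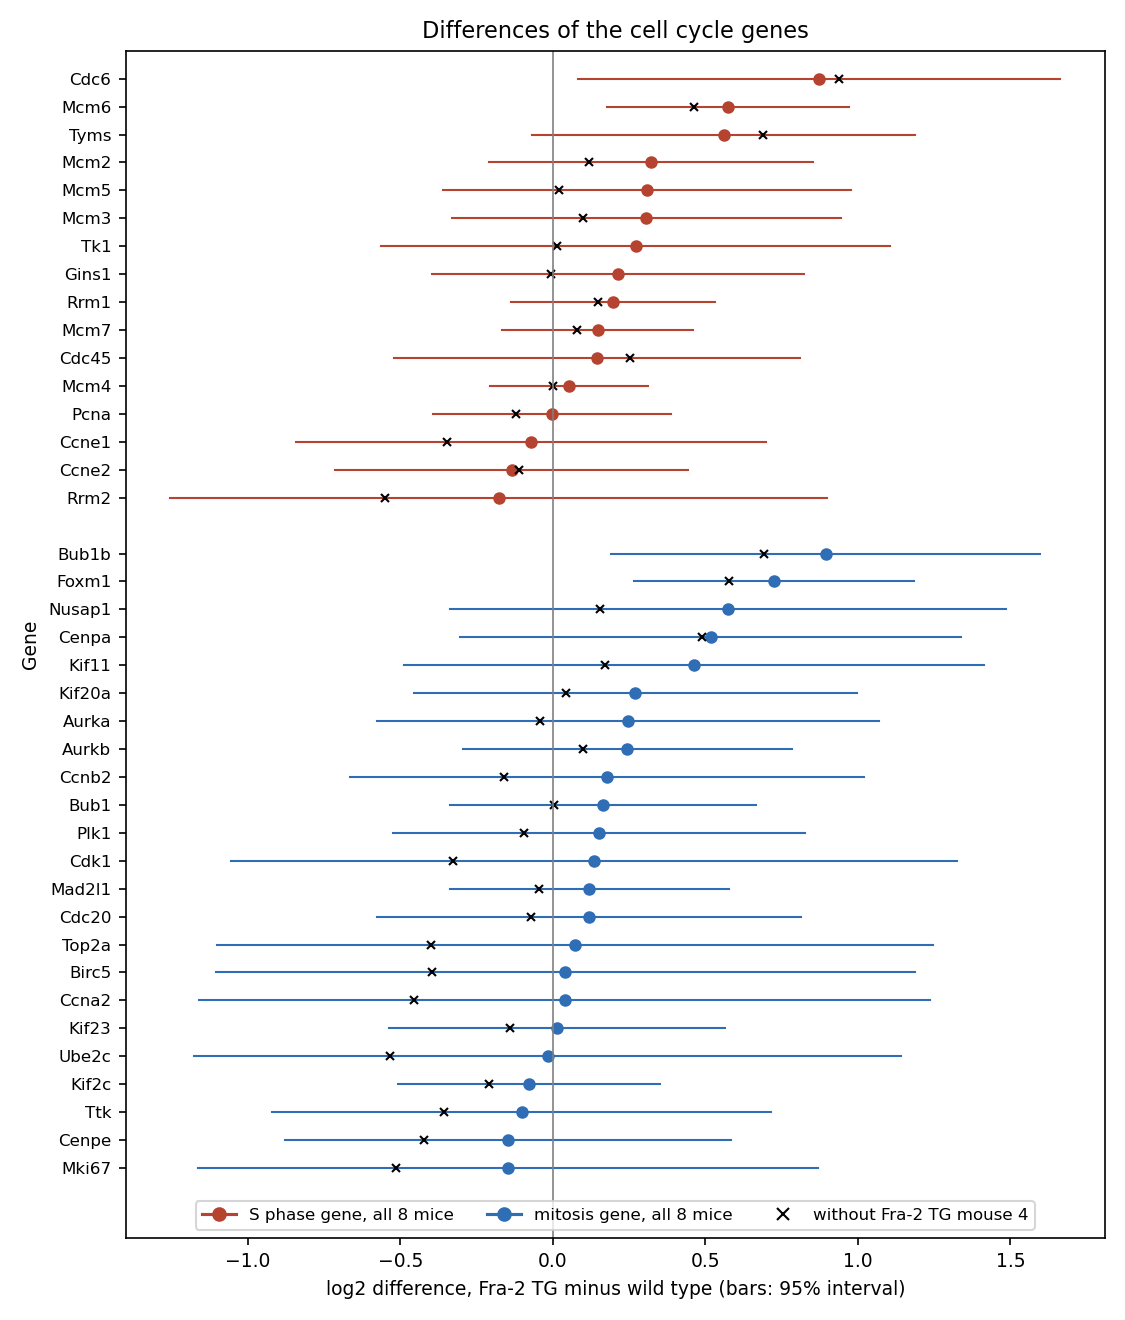
Difference of each gene in log2 units, Fra-2 TG minus wild type, with its 95% interval from the limma fit (4 mice per group; S phase genes in red, mitosis genes in blue). Crosses give the difference without Fra-2 TG mouse 4; all 16 S phase genes and all 23 mitosis genes are drawn, and the interval lies above 0 for Cdc6, Mcm6, Bub1b and Foxm1.

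Fra-2 TG mouse 4 stood apart. It had the highest of the 8 values in 33 of 39 genes (84.6%, against 18.8% of all genes), 12 of 16 in S phase and 21 of 23 in mitosis. It stood above the mean of the other 3 Fra-2 TG mice by a median of 0.47 in S phase genes and 1.02 in mitosis genes, against -0.01 over all genes tested. By gene, that gap ran from -0.51 (Tyms) to 2.06 (Ube2c), and it was positive for all 23 mitosis genes. Without that mouse, 19 of 39 differences were positive, 11 of 16 in S phase and 8 of 23 in mitosis. The median difference was then 0.05 for S phase genes and -0.09 for mitosis genes, against 0.01 for all genes tested.

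The wild-type group had an order of its own. Wild-type mouse 2 was the highest of the 4 wild-type mice in 27 of 39 genes (69.2%, against 23.1% of all genes), and wild-type mouse 4 in 8 of 39, against 33.8% of all genes. Mouse 2 exceeded the mean of the other 3 by a median of 0.40 over the 39 genes, against 0.02 over all genes tested. Fra-2 TG mouse 1 had the lowest of the 8 values in 12 of 23 mitosis genes and in 0 of 16 S phase genes, against 1759 of all 20863 genes. Across mitosis genes the median deviation from the wild-type mean was -0.42, -0.11, 0.13 and 0.96 in Fra-2 TG mice 1 to 4, against -0.26, 0.47, -0.09 and 0.01 in wild-type mice 1 to 4. Across S phase genes it was 0.05, 0.12, 0.04 and 0.72 in Fra-2 TG mice, against -0.19, 0.28, -0.11 and 0.04 in wild-type mice. The difference between group means was smaller than the range within the Fra-2 TG group in 37 of 39 genes (94.9%, against 88.7% of all genes), all except Mcm6 and Cenpa.

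**Figure D2:**
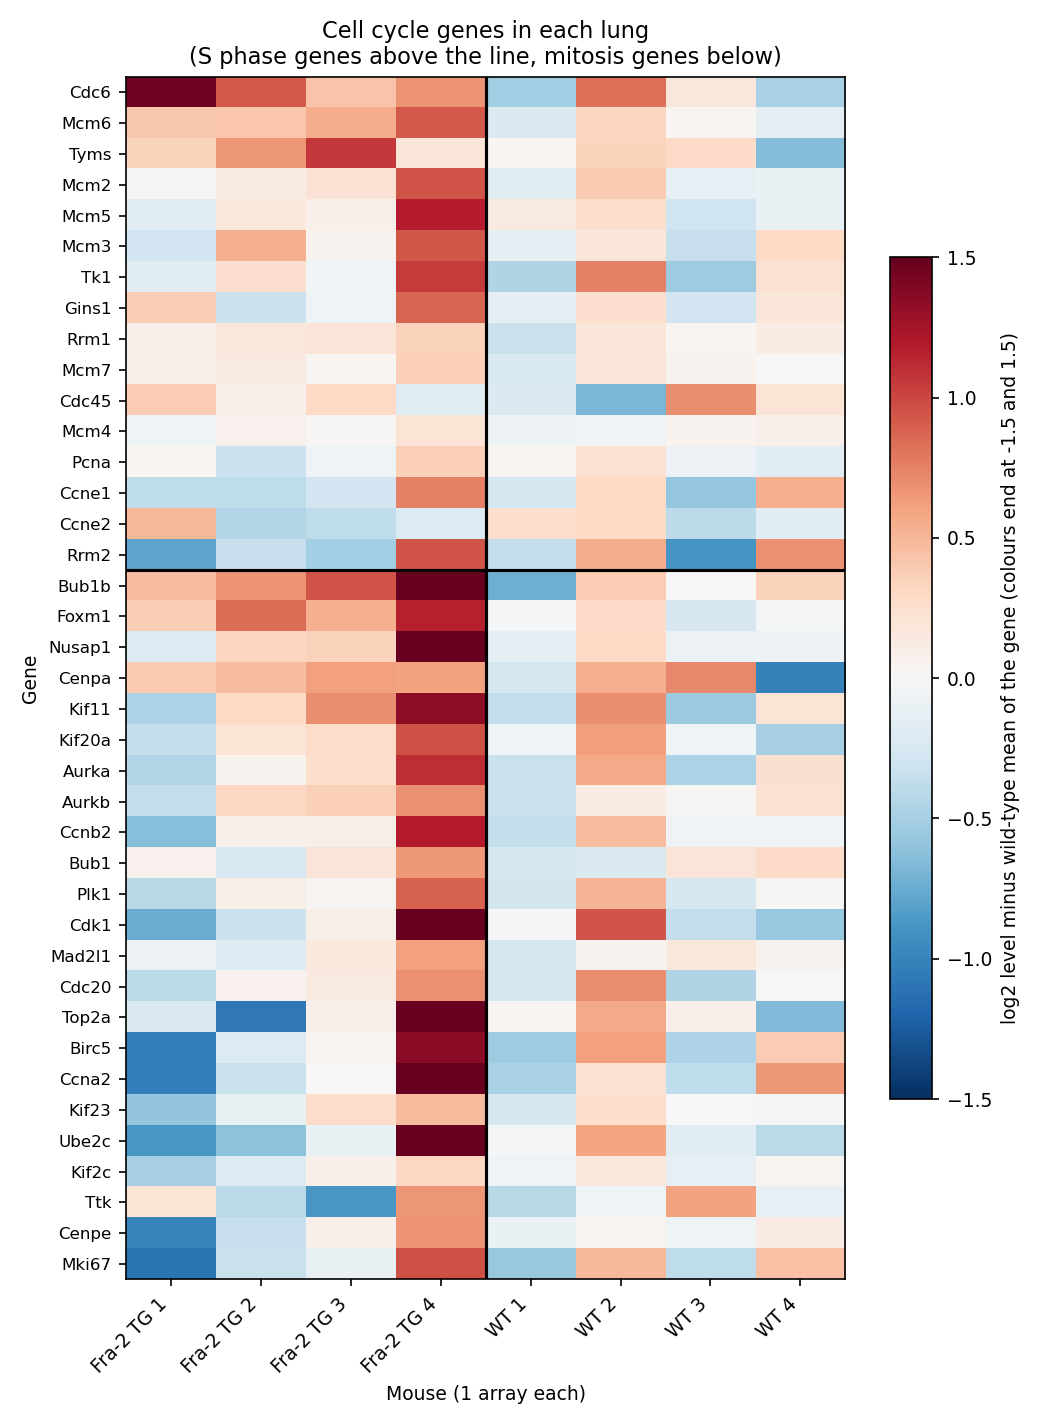
Log2 level of each gene in each mouse as the deviation from that gene's wild-type mean (red above, blue below, colours ending at -1.5 and 1.5), with Fra-2 TG mice left of the vertical line and S phase genes above the horizontal line. The column of Fra-2 TG mouse 4 is the reddest for 33 of the 39 genes.

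The MCM proteins, whose 6 subunits Mcm2 to Mcm7 form the replicative helicase, all had positive differences, from 0.05 (Mcm4) to 0.58 (Mcm6), and Fra-2 TG mouse 4 was highest in 6 of 6. Mcm6 had levels of 11.75, 11.76, 11.89 and 12.25 in Fra-2 TG mice 1 to 4, against 11.12, 11.66, 11.36 and 11.19 in wild-type mice 1 to 4. The groups did not overlap, although only 0.08 on the log2 scale parted the lowest Fra-2 TG value from wild-type mouse 2. Its means were 11.91 ± 0.24 in Fra-2 TG lung and 11.34 ± 0.24 in wild-type lung (SD, n = 4 each), a difference of 0.58 (SE 0.17, 95% interval 0.18 to 0.97) that did not pass (limma adjusted p = 0.351).

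Mcm2 had levels of 7.53, 7.63, 7.74 and 8.46 in Fra-2 TG mice, against 7.35, 7.90, 7.39 and 7.42 in wild-type mice. Here Fra-2 TG mouse 4 and wild-type mouse 2 were each well above their own groups, and the groups overlapped (difference 0.32, SE 0.23, limma adjusted p = 0.716). Mcm3 had 9.23, 10.05, 9.57 and 10.45 in Fra-2 TG mice, against 9.38, 9.70, 9.17 and 9.82 in wild-type mice, with overlap (difference 0.31, SE 0.28, limma adjusted p = 0.780). Its 2 spots gave nearly the same difference, 0.31 each. Without Fra-2 TG mouse 4 the 6 MCM differences ran from 0.002 (Mcm4) to 0.46 (Mcm6), with 0.12 for Mcm2 and 0.10 for Mcm3, and 6 of 6 were still positive.

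Cdc6, which loads the MCM ring at origins, lay near the floor, with levels of 5.67, 5.14, 4.64 and 4.89 in Fra-2 TG mice, against 3.70, 5.04, 4.38 and 3.73 in wild-type mice. Fra-2 TG mouse 1 was highest and wild-type mouse 2 lay within the Fra-2 TG range. The wild-type mean was under the floor, so that the Fra-2 TG mean was at least 1.21-fold higher, or 1.05-fold without Fra-2 TG mouse 1 (fitted difference 0.87, SE 0.34, limma adjusted p = 0.505). The other Cdc6 spot, under the floor in all 8 mice, had a difference of -0.29. Cdc45 and Gins1, parts of the active helicase, differed by 0.14 and 0.21, with Cdc45 under the floor in both group means. Cyclin E drives entry into S phase: Ccne1 differed by -0.07 and Ccne2, under the floor in all 8 mice, has no interpretable difference.

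The sliding clamp of the replication fork, Pcna, had levels of 12.11, 11.76, 12.02 and 12.45 in Fra-2 TG mice, against 12.11, 12.31, 12.00 and 11.92 in wild-type mice. The Fra-2 TG range enclosed the wild-type range, and the difference was -0.00 (SE 0.17, 95% interval -0.39 to 0.39, limma adjusted p = 1.00). Enzymes that supply nucleotides were mixed. Ribonucleotide reductase makes deoxynucleotides from a large subunit, Rrm1, and a small one, Rrm2, whose level follows S phase. Rrm1 had 9.59, 9.68, 9.71 and 9.86 in Fra-2 TG mice, against 9.18, 9.70, 9.55 and 9.63 in wild-type mice, a narrow spread in both groups (difference 0.20, SE 0.15, limma adjusted p = 0.723). Rrm2 had 7.60, 8.05, 7.89 and 9.33 in Fra-2 TG mice, against 8.02, 8.95, 7.51 and 9.08 in wild-type mice. For Rrm2, Fra-2 TG mouse 4 and wild-type mice 2 and 4 were high, the other 5 low, and the difference was -0.18 (SE 0.47, 95% interval -1.25 to 0.90, limma adjusted p = 0.935). Tyms, the thymidylate synthase, had 4.90, 5.22, 5.62 and 4.74 in Fra-2 TG mice, against 4.59, 4.89, 4.85 and 3.91 in wild-type mice. Unlike most of the set, Tyms was lowest of the Fra-2 TG group in mouse 4. Its wild-type mean lay under the floor, so that the Fra-2 TG mean was at least 1.25-fold higher, or 1.11-fold without Fra-2 TG mouse 3. The groups overlapped, and the interval included 0 (fitted difference 0.56, SE 0.27, 95% interval -0.07 to 1.19, limma adjusted p = 0.594). Tk1, the thymidine kinase of the salvage route, differed by 0.27 (SE 0.36).

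**Figure D3:**
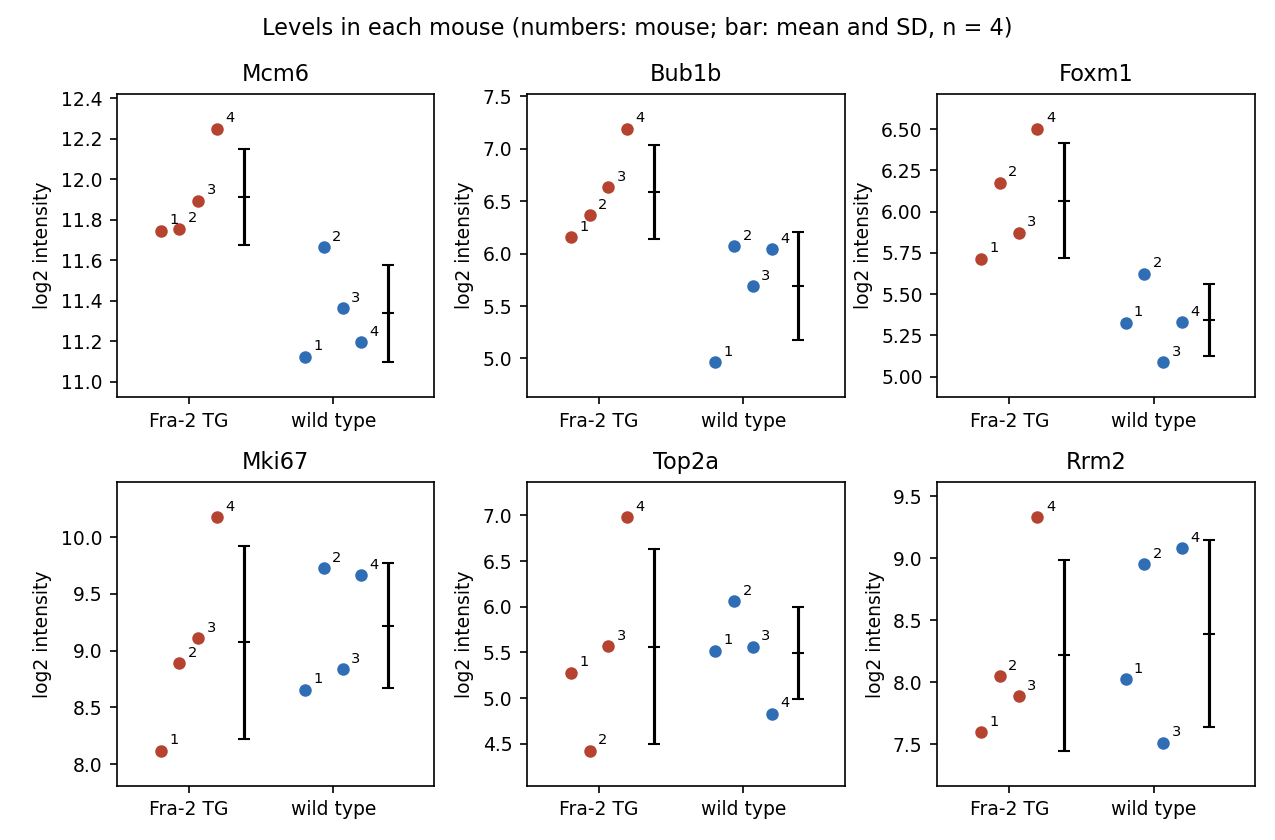
Log2 intensity of Mcm6, Bub1b, Foxm1, Mki67, Top2a and Rrm2 in each of 4 Fra-2 TG mice (red, left) and 4 wild-type mice (blue, right), with mouse numbers and the mean and SD of each group. The groups are apart for Mcm6, Bub1b and Foxm1 and overlap for Mki67, Top2a and Rrm2, and Fra-2 TG mouse 4 is the highest in all 6 panels.

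Among mitosis genes, Foxm1 and Bub1b were those without overlap (2 of 23, 8.70%, against 3.99% of all genes). Foxm1, the transcription factor of G2 and mitosis genes, had levels of 5.71, 6.18, 5.87 and 6.50 in Fra-2 TG mice, against 5.33, 5.62, 5.09 and 5.33 in wild-type mice. Its means were 6.07 ± 0.35 in Fra-2 TG lung and 5.34 ± 0.22 in wild-type lung (SD, n = 4 each), a difference of 0.72 (SE 0.20, 95% interval 0.26 to 1.18, limma adjusted p = 0.305). Fra-2 TG mouse 4 was highest, and 0.09 parted the groups at their nearest. A dimmer Foxm1 spot, with a mean under the floor in both groups, gave -0.13. Bub1b, the spindle checkpoint protein BUBR1, had 6.16, 6.36, 6.64 and 7.19 in Fra-2 TG mice, against 4.97, 6.07, 5.69 and 6.04 in wild-type mice. The lowest Fra-2 TG value lay just above wild-type mouse 2 (difference 0.89, SE 0.31, 95% interval 0.19 to 1.60, limma adjusted p = 0.431). Without Fra-2 TG mouse 4 the differences were 0.58 for Foxm1 and 0.69 for Bub1b.

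The common proliferation marker Mki67, a coat protein of mitotic chromosomes, did not show that separation. Its levels were 8.12, 8.89, 9.11 and 10.18 in Fra-2 TG mice, against 8.66, 9.72, 8.84 and 9.66 in wild-type mice. Both extremes of the 8 were Fra-2 TG mice, number 1 at the bottom and number 4 at the top, and the difference was -0.15 (SE 0.44, 95% interval -1.16 to 0.87, limma adjusted p = 0.945). Top2a, the topoisomerase that untangles sister chromatids, had 5.28, 4.42, 5.57 and 6.98 in Fra-2 TG mice, against 5.52, 6.06, 5.56 and 4.83 in wild-type mice. Cdk1, the kinase that starts mitosis, had 4.28, 4.71, 5.11 and 6.56 in Fra-2 TG mice, against 5.02, 5.98, 4.67 and 4.46 in wild-type mice. In both genes Fra-2 TG mouse 4 was highest and wild-type mouse 2 was the highest of its group (differences 0.07, SE 0.51, and 0.14, SE 0.52; limma adjusted p = 0.983 and 0.958).

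Ccna2, the cyclin of S phase and G2, had 6.35, 7.03, 7.37 and 8.90 in Fra-2 TG mice, against 6.88, 7.60, 6.99 and 8.02 in wild-type mice. Birc5, or survivin, a subunit of the chromosomal passenger complex, had 7.84, 8.65, 8.91 and 10.22 in Fra-2 TG mice, against 8.33, 9.48, 8.40 and 9.25 in wild-type mice. For both, Fra-2 TG mice 1 and 4 enclosed the whole wild-type range (differences 0.04, SE 0.52, and 0.04, SE 0.50). The passenger kinase Aurkb was under the floor in all 8 mice, at 2.94, 3.61, 3.66 and 3.99 in Fra-2 TG mice, against 2.96, 3.41, 3.32 and 3.52 in wild-type mice, which leaves no interpretable difference.

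Nusap1, a spindle microtubule protein, had 6.05, 6.58, 6.61 and 8.10 in Fra-2 TG mice, against 6.13, 6.56, 6.17 and 6.19 in wild-type mice. Its difference of 0.57 (SE 0.40, limma adjusted p = 0.706) was 0.15 without Fra-2 TG mouse 4, whose value lay 1.68 above the mean of the other 3. Kif11, the motor that pushes spindle poles apart, had 4.09, 4.86, 5.26 and 5.91 in Fra-2 TG mice, against 4.21, 5.26, 4.02 and 4.77 in wild-type mice, with a wild-type mean under the floor. The groups overlapped, and the fitted difference of 0.46 (SE 0.41, limma adjusted p = 0.778) was 0.17 without Fra-2 TG mouse 4. Cenpa, the histone variant of centromeres, had 7.75, 7.82, 7.97 and 7.96 in Fra-2 TG mice, against 7.11, 7.90, 8.08 and 6.34 in wild-type mice. The 4 Fra-2 TG values of Cenpa lay within 0.22 of each other, inside a wild-type range of 1.74. The difference was 0.52 (SE 0.36, limma adjusted p = 0.706), and 0.18 without wild-type mouse 4.

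The mitosis genes not given by mouse were Ccnb2, Bub1, Aurka, Plk1, Kif20a, Kif2c, Kif23, Cdc20, Ube2c, Cenpe, Ttk and Mad2l1. Their differences lay between -0.15 (Cenpe, a kinetochore motor) and 0.27 (Kif20a, a motor of cytokinesis), and Kif2c and Ttk lay under the floor in all 8 mice. For Ccnb2, the cyclin B2 partner of Cdk1, the difference was 0.18 (SE 0.37) with all mice and -0.16 without Fra-2 TG mouse 4. For Ube2c, the ubiquitin-conjugating enzyme of the anaphase-promoting complex, it was -0.02 (SE 0.50) with all mice and -0.53 without that mouse. Cdc20, the activator of that complex, was the only mitosis gene with its highest value in wild-type mouse 2, and Cenpa the only one with it in wild-type mouse 3.

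Repeat spots show how far a difference depends on the spot that reads a gene. The 39 genes had 61 spots, 28 genes with 1 and 11 with several. Fra-2 TG mouse 4 was highest at 46 of the 61 spots. Bub1, a checkpoint kinase, was read by 10 spots, whose differences ran from -0.46 to 0.33 with a mean of 0.05 and an SD of 0.22. The sign was positive at 7 and negative at 3, while Fra-2 TG mouse 4 was highest at 9 of the 10. Spots of 1 gene went opposite ways for Bub1, Cdc6, Cdk1, Foxm1, Mad2l1 and Ube2c. Of these, only Bub1 and Ube2c did so among spots with a mean above the floor. The 2 Ube2c spots gave -0.02 and 0.41, and the 2 Mki67 spots -0.13 and -0.15.

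**Figure D4:**
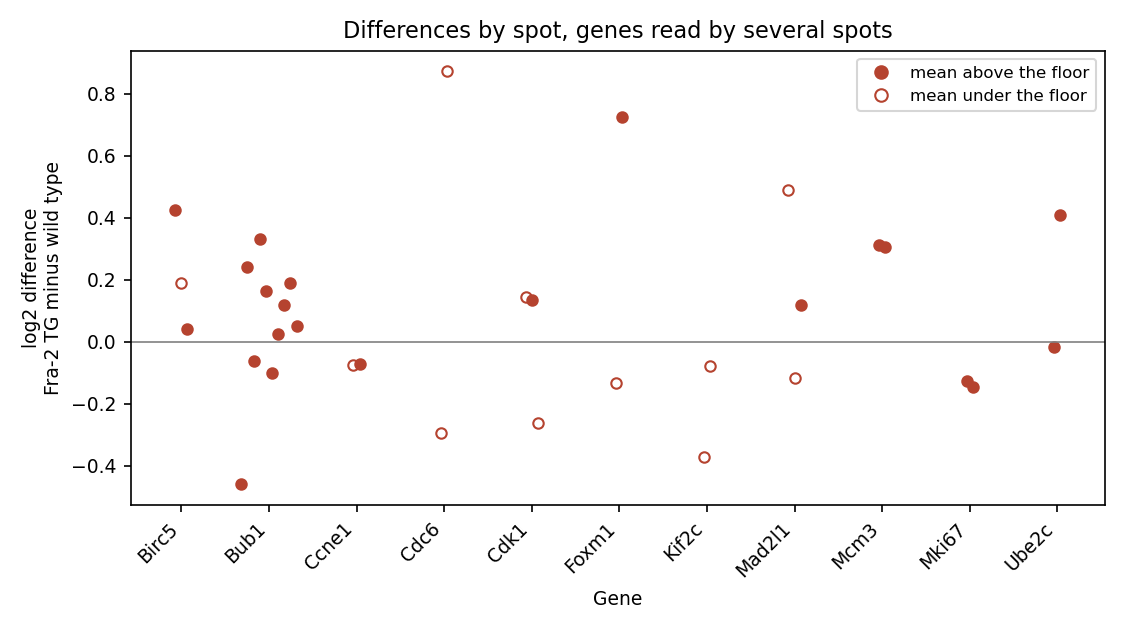
Log2 difference, Fra-2 TG minus wild type, at each spot of the 11 genes read by several spots (filled points: mean over 8 mice above the floor of 4.74; open points: under it). The 10 Bub1 spots spread from -0.46 to 0.33, on both sides of 0.

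Other genes of the cell cycle were read in 5 lists. Of their 147 measured genes, 0 passed the limma test adjusted over all genes (0.216% of all genes passed). At an unadjusted p below 0.05, 8 had higher levels in Fra-2 TG lung (5.44%, against 5.33% of all genes) and 2 had lower levels (1.36%, against 3.82%). The groups were apart as higher in 7 of 147 (4.76%, against 3.99% of all genes). They were apart as lower in 1 of 147, against 2.54% of all genes. Genes of these lists named below as apart are therefore near the share of all genes. Differences were positive for 106 of 147 (72.1%, against 52.4% of all genes) with a median of 0.13, and for 72 of 147 without Fra-2 TG mouse 4, with a median of -0.01. Fra-2 TG mouse 4 was highest in 88 of 147 (59.9%, against 18.8% of all genes). By list it was highest in 51 of 64 other mitosis genes and 26 of 45 other DNA replication genes. It was so in 8 of 19 RB, E2F and DREAM regulators, 2 of 11 G1 cyclins and kinases and 1 of 8 CDK inhibitors. The median difference was 0.13 in each of the lists of other mitosis and other DNA replication genes. It was 0.09 for RB, E2F and DREAM regulators, 0.18 for G1 cyclins and kinases and -0.001 for CDK inhibitors.

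**Figure D5:**
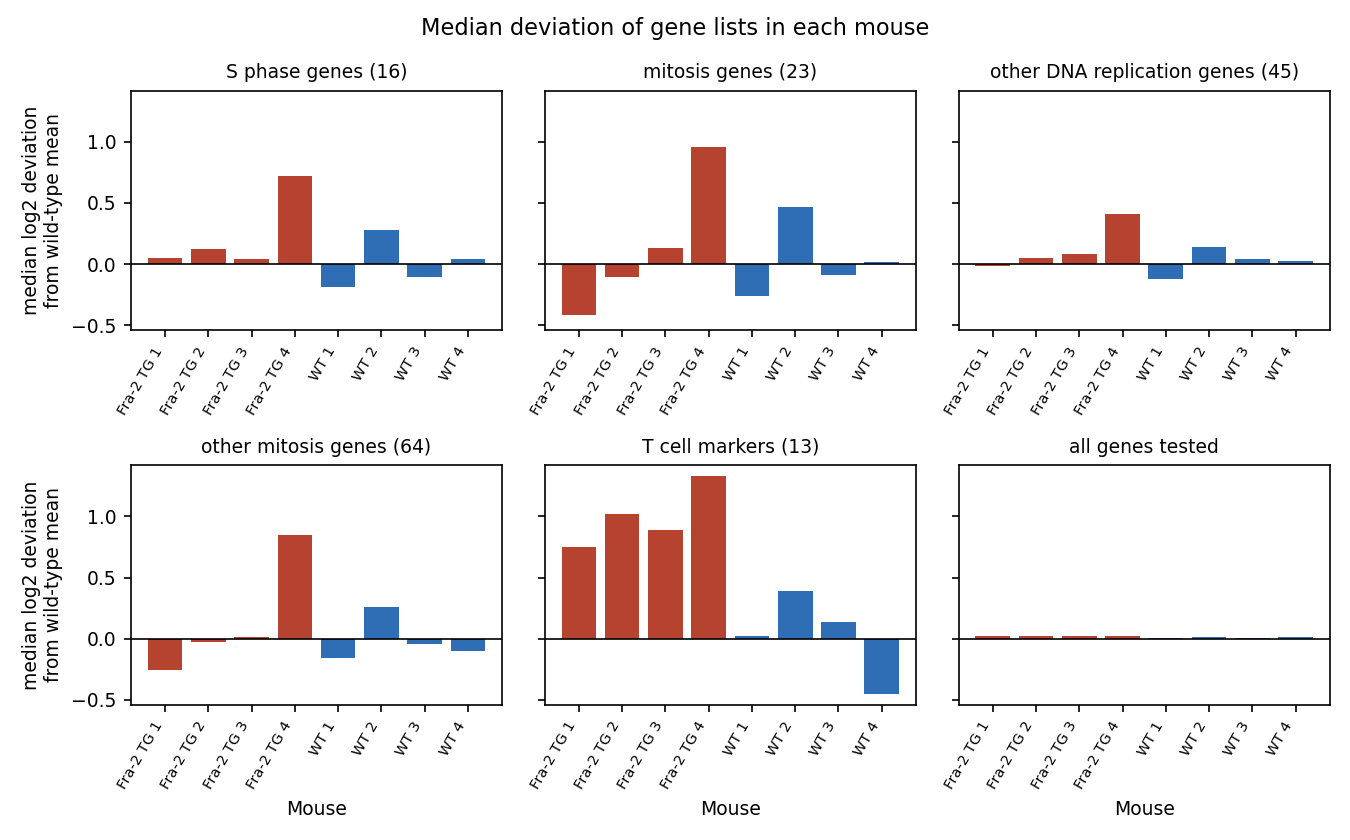
Median deviation from the wild-type mean, in log2 units, over the genes of each list in each mouse (Fra-2 TG mice in red on the left, wild-type mice in blue). Fra-2 TG mouse 4 is the highest bar for S phase, mitosis, other replication, other mitosis and T cell genes, and all 4 Fra-2 TG bars of the T cell panel exceed its wild-type bars.

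E2f7, a repressor of E2F targets that is itself an E2F target, had the smallest p of the 5 lists. Its levels were 6.47, 6.24, 6.45 and 7.21 in Fra-2 TG mice, against 5.43, 5.64, 5.74 and 5.54 in wild-type mice. The groups were 0.50 apart at their nearest (difference 1.01, 2.01-fold, SE 0.21, limma adjusted p = 0.185). A second, dimmer E2f7 spot went the opposite way, with 4.95, 4.63, 4.59 and 4.25 in Fra-2 TG mice, against 5.17, 4.91, 5.27 and 5.33 in wild-type mice (difference -0.56). The mean of the 2 spots differed by 0.22 (limma adjusted p = 0.643), so that E2f7 has no settled direction here. E2f3, an activating E2F, differed by 0.51 (SE 0.19) and Rbl2, the pocket protein p130 of the DREAM complex, by -0.27 (SE 0.15), both with overlap. A second E2f3 spot gave -0.12.

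The CDK inhibitors went both ways. Cdkn2a, which encodes p16INK4a and p19ARF, had 8.81, 7.83, 8.53 and 8.63 in Fra-2 TG mice, against 7.65, 7.07, 7.74 and 6.14 in wild-type mice. Those groups were apart (difference 1.30, 2.47-fold, SE 0.38, limma adjusted p = 0.342). Cdkn1b, which encodes p27, had 11.85, 11.90, 11.73 and 11.48 in Fra-2 TG mice, against 12.14, 12.06, 12.09 and 12.06 in wild-type mice. At that spot it was lower in all 4 Fra-2 TG mice and lowest in number 4 (difference -0.35, SE 0.12, limma adjusted p = 0.459). A second, dimmer Cdkn1b spot had 6.13, 6.52, 6.00 and 6.10 in Fra-2 TG mice, against 6.64, 6.44, 6.58 and 5.99 in wild-type mice. There the groups overlapped (difference -0.22). Cdkn1a, which encodes p21, differed by -0.76 (SE 0.36), with overlap.

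Of the G1 genes, Cdk6 was under the floor in all 4 wild-type mice, and its Fra-2 TG mean was at least 1.34-fold higher (fitted difference 0.75, SE 0.28, limma adjusted p = 0.482). Without Fra-2 TG mouse 4 that difference was 0.48 and the bound 1.12-fold. Myc, a driver of cell growth, differed by 0.71 (SE 0.34), and by 0.38 without Fra-2 TG mouse 4, and Cdk4 by 0.24 (SE 0.11). A second Myc spot gave 0.43, and the other Cdk4 spots gave 0.38 and 0.45. Of the other replication genes, Dnmt1, the maintenance DNA methyltransferase, had 8.40, 8.46, 8.33 and 8.59 in Fra-2 TG mice, against 7.51, 8.08, 8.12 and 7.94 in wild-type mice. Its groups were apart and, unlike Mki67 or Top2a, the Fra-2 TG mice differed little from each other (difference 0.53, SE 0.16, limma adjusted p = 0.350). Dbf4, the activator of the Cdc7 kinase, differed by 0.41 (SE 0.18) without overlap, and by 0.24 without Fra-2 TG mouse 4, and Gins2 by 0.60 (SE 0.28) with overlap. Of the other mitosis genes, Cenpn, a centromere protein, and Ckap2, a spindle protein, had wild-type means under the floor. Their Fra-2 TG means were at least 1.44-fold and 1.63-fold higher (limma adjusted p = 0.246 and 0.408). Knl1, a kinetochore protein, lay under the floor in both group means.

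Markers of cell types that could hold dividing cells were read in the same mice, and their part in the levels above was not tested. No marker was at 0 in any mouse. The lists are not separate, so that likeness between them can come in part from shared genes. Cd8b1 and Tcf7 are in the T cell and thymocyte lists, and Chil3 in the neutrophil precursor and alveolar macrophage lists. Car4 is in the alveolar macrophage and endothelium lists, and Mybl1 in the B cell list and among the RB, E2F and DREAM regulators. The neutrophil precursor list also holds S100a8, S100a9 and Lcn2, which are not confined to precursors. Of 13 T cell markers, 13 had positive differences (median 1.07) and 11 were highest in Fra-2 TG mouse 4. Their summed intensity was 9418 to 15342 in Fra-2 TG mice, highest in mouse 4, against 3978 to 7705 in wild-type mice, highest in mouse 2, with no marker under the floor in any mouse. Thymocyte markers had 9 of 13 positive, 2 of 13 highest in Fra-2 TG mouse 4, and sums of 4195 to 5049 in Fra-2 TG mice, against 2206 to 3917 in wild-type mice. Rag1 and Ptcra, which mark developing thymocytes, had means under the floor in both groups.

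B cell and germinal centre markers were positive in 10 of 12, with sums of 13437 to 29325 in Fra-2 TG mice, the highest in mouse 4, against 9237 to 17409 in wild-type mice, the highest in mouse 2. Differences of NK cell markers were negative in all 10 (3 passed the adjusted test as lower, against 0.0911% of all genes), with sums of 1687 to 2803 in Fra-2 TG mice, against 8313 to 14967 in wild-type mice. Sums overlapped between the groups for B cell and germinal centre markers and for the 5 lists that follow. Erythroid precursor markers (5 of 10 positive) summed to 53511 to 76657 in Fra-2 TG mice, against 67101 to 76154 in wild-type mice, highest in mouse 1. Neutrophil precursor markers (7 of 11) summed to 72182 to 157100 in Fra-2 TG mice, against 75872 to 154790 in wild-type mice, highest in mouse 3. The remaining marker of alveolar macrophages, Marco, passed the adjusted test as lower (difference -2.08, limma adjusted p = 0.0105). Alveolar macrophage markers (10 of 11 positive) summed to 103105 to 139341 in Fra-2 TG mice, against 59171 to 112402 in wild-type mice, highest in mouse 2. Fra-2 TG mouse 4 had the highest sum of its group in these 3 lists and for NK cell markers. A sum follows its brightest markers. Counted by marker, that mouse was highest of its group in 3 of 11 alveolar macrophage markers, against 32.1% of all genes. It was so in 8 of 10 erythroid precursor, 8 of 11 neutrophil precursor and 6 of 10 NK cell markers. Lung endothelium markers (8 of 11) summed to 121179 to 160273 in Fra-2 TG mice, lowest in mouse 4, against 117045 to 144866 in wild-type mice. Lung epithelium markers, with 3 of 13 positive, summed to 324741 to 370501 in Fra-2 TG mice, lowest in mouse 4, against 365891 to 374043 in wild-type mice. Of these 13, Krt14, a keratin of basal cells, passed the adjusted test as higher (difference 2.79, limma adjusted p = 0.0105, against 0.125% of all genes that passed as higher). The epithelium list holds Sftpc, at the top of the scanner's scale, so that its sum and sign count can hardly show a change in that gene. The list's median deviation was an identical 1.5e-05 in Fra-2 TG mouse 2 and wild-type mice 1, 3 and 4. With 13 markers the median is the value of a single marker, and a single marker at that limit can give it. Whether more of its markers lie at that limit was not tested.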

How the data were processed

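For each of 8 arrays the authors deposited a normalised linear intensity at 62976 spots. The sources used here do not describe the background correction or normalization. R 2.15.1 and limma 3.14.4 are named in the submitters' processing notes. Platform symbols (31465 named spots) were updated through RefSeq accessions to GRCm38.p6 names, which matched 29050 spots and changed no spot of the 39 genes. The spot with the highest mean log2 value stood for each of 20863 genes. A limma 3.58.1 model (lmFit, then eBayes; R 4.3.3) with a term for group alone was fitted to log2 intensities with no offset. Benjamini-Hochberg adjustment ran over all genes, and an adjusted p under 0.05 passed. Files were read through the data.table package (version 1.17.8) and drawn with Python 3.11.15 and matplotlib 3.10.9.

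Where only 1 group's mean lay under the floor of 4.74, the fold is a bound, the brighter mean against the dimmer group's mean with each value raised to the floor. Such a bound concerns the measured means and takes no account of the spread between mice. No flags for background or saturation were used, and the number of arrays limits the precision. The fit was tested on simulated data. The genes, the lists (5 of other cell cycle genes, 9 of cell type markers) and the floor were chosen with earlier results of these data known. Levels by mouse are given for 7 measured genes fixed by name (Mki67, Top2a, Cdk1, Foxm1, Pcna, Mcm2 and Rrm2). To these were added, in each of the S phase and mitosis sets, the 6 with the smallest p, the 2 brightest and the 2 with the widest range. From each other cell cycle list, the 3 genes with the smallest p are named. Replicates are separate animals per the labels. Mouse numbers are shared between the groups, but deviations of same-numbered mice correlated at -0.01 to 0.05 over all genes, so they were not treated as pairs. Alternatives were other spots, filters, offsets, scalings, variance models, thresholds, a replicate block, an exact permutation test and mice left out.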

Additional observations from a re-analysis of the deposited data

Results flagged for a closer look

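Dixon's ratio, the gap from an extreme mouse to its nearest neighbour over the range of its group, was checked in 82 groups of 4 mice (39 genes and 2 list medians, in each genotype). It passed the 95% critical value in 4; chance passes about 1 group in 20. The median deviation of the S phase genes was 0.72 in Fra-2 TG mouse 4, against 0.04 to 0.12 in the other 3 Fra-2 TG mice. Ccne1 stood at 7.16 in Fra-2 TG mouse 4, against 6.02 to 6.11 in the other 3. Mcm2 stood at 7.90 in wild-type mouse 2, against 7.35 to 7.42 in the other 3 wild-type mice. Nusap1 stood at 6.56 in wild-type mouse 2, against 6.13 to 6.19 in the other 3.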

How the results depend on the processing

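No S phase or mitosis gene, and no gene of the 5 other cell cycle lists, passed the adjusted test under any alternative run, except when the threshold itself was replaced by an unadjusted p under 0.05, where 2 S phase genes and 2 mitosis genes were higher. The replicate block also left 0 calls in both sets. Fra-2 TG mice 1, 3 and 4 correlated best with the wild-type mouse of the same number, though only at 0.02 to 0.05. Fra-2 TG mouse 2 correlated best with wild-type mouse 1. Without Fra-2 TG mouse 4, or without both mice numbered 4, 8 of 23 mitosis differences were positive; the count ran from 8 to 22 over the 8 fits that each left out 1 mouse. The mitosis median ran from -0.09 to 0.39 over those fits and the S phase median from 0.05 to 0.28. Groups were apart for 1 mitosis gene with the mean of all spots or the spot of largest spread, and for 2 to 4 with 1 mouse left out (4 without Fra-2 TG mouse 1, where 5.67% of all genes were apart as higher, against 3.99% with 8 mice). They were apart for 1 to 3 S phase genes with 1 mouse left out (2 without Fra-2 TG mouse 4, 3 without wild-type mouse 2, with 6.16% and 6.46% of all genes), and for 2 without both mice numbered 4 (9.91% of all genes). Fewer mice part more genes of any kind, so these counts cannot be read as more separation. Over the alternatives the difference ran from 0.41 to 0.68 for Mcm6, from 0.61 to 1.04 for Bub1b and from -0.13 to 0.84 for Foxm1, the negative value with the spot of largest spread. Of 34 named genes, 8 changed sign under at least 1 alternative, none of them past the threshold. With 4 mice per group and the spread seen, intervals reach about 1 log2 unit either way for genes such as Mki67, so that changes of that size cannot be told from none.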
